A study of Mus musculus with 6 samples.

Results

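The 571 bins described here are the 50 kb stretches of the mouse autosomes (build mm10) in which at least 1 protein-coding olfactory receptor gene starts. They were chosen by gene symbol alone (symbols beginning with Olfr in the RefSeq table of GRCm38.p6), out of 49224 autosomal bins, of which 47875 held any contact. The table lists 1110 such genes, 1104 of them on autosomes and 6 on chromosome X. It gives no strand, so the start was taken as the lower coordinate; of the 938 genes whose promoter entry gives a strand, strand-aware starts fell in 569 bins, 567 of them among the 571.

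Contacts between DNA segments were measured by Hi-C, in which crosslinked nuclei are cut with MboI, ends that lie together are ligated, and each joined pair is sequenced. The cells were mouse embryonic stem cells of strain 129, with 3 libraries labelled Del8 and 3 labelled wild type (WT). Del8 cells express CTCF lacking zinc finger 8, a mutant form of the factor that binds DNA through a row of zinc fingers and holds many loop anchors. The series text describes the comparison line as expressing GFP-tagged CTCF; whether the libraries labelled wild type carry that tag is not settled by the labels. The same text speaks of biological replicates, and nothing says whether each line is a single clone. DNA contacts measure no expression, so the labelled cell type could not be checked against marker genes.

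Olfactory receptors are G protein-coupled receptors of olfactory sensory neurons and form the largest gene family of the mouse. Their genes lie in tandem clusters, and each sensory neuron expresses a single receptor allele while the others stay silent in heterochromatin. In mature olfactory neurons receptor clusters of different chromosomes gather into shared compartments around enhancer hubs; in embryonic stem cells the family is silent. Class I receptors, first known from fish, sit mainly in a cluster on mouse chromosome 7, and class II receptors are spread over most chromosomes.

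Sequences around the listed starts of 4 well-studied receptors, called promoters here, are printed from bins with and without full coverage. The MboI site GATC is in capitals. Olfr544, a class I receptor for azelaic acid, and Olfr160, a class II receptor for acetophenone, lie in bins that were measured in every library. Olfr17, a receptor much used in studies of axon targeting, and Olfr73, the eugenol receptor, lie in bins that had lost most contacts in WT replicates 1 and 2. The bin of Olfr73 was also low in Del8 replicate 3, with 196 contacts against 1035 and 780 in Del8 replicates 1 and 2. Each sequence runs from 250 bases before to 50 bases after the start of the gene entry (RefSeq, GRCm38.p6), 5′ to 3′ on the strand of the gene. For Olfr17 and Olfr73 the last 50 bases begin with ATG, the start codon, and for Olfr160 ATG follows within a few bases. These windows thus lie at the coding start, and whether listed starts are transcription starts was not checked.
Olfr544 (chr7:102488258-102488557, minus strand): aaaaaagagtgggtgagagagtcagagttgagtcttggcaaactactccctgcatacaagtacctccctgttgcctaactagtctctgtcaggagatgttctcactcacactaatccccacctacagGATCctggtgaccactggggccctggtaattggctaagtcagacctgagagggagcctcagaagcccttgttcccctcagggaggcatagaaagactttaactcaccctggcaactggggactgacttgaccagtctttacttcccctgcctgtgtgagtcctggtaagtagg
Olfr160 (chr9:37712231-37712530, minus strand): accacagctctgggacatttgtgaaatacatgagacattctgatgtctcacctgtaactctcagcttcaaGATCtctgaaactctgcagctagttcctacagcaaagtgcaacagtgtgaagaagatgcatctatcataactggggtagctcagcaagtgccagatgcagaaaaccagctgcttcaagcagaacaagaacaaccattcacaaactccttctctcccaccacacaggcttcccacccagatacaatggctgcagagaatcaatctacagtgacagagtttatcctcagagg
Olfr17 (chr7:107097217-107097516, plus strand): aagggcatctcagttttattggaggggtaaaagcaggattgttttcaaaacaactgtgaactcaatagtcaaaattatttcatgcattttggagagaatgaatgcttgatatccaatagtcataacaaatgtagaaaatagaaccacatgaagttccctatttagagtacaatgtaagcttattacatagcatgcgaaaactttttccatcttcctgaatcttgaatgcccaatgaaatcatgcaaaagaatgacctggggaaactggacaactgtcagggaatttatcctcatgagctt
Olfr73 (chr2:88035088-88035387, minus strand): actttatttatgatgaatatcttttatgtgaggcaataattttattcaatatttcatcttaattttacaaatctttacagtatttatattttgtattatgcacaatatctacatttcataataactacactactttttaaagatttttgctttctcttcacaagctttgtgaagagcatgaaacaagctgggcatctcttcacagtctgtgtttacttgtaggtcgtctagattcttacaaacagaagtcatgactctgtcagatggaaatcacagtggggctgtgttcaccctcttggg

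G and C made up 51.7% of the Olfr544 promoter, 46.0% of that of Olfr160, 35.7% of that of Olfr17 and 32.3% of that of Olfr73. Over the 938 autosomal receptor promoters in the table the median was 35%, against 56.7% over all 16457 autosomal promoters. The median was 40% for the 294 promoters in receptor bins usable in every library (defined below) and 33.3% for the 551 in bins short of contacts in both WT replicate 1 and WT replicate 2. GATC occurred in 49.7% of receptor promoters and in 46.4% of all promoters, read on either strand. The homeodomain core TAATTA, also read on both strands, was found in 18.8% of receptor promoters and in 4.62% of all promoters. It holds only A and T, and these shares were not adjusted for the lower GC content of receptor promoters. Among receptor promoters it was found in 13.6% of the 294 in usable bins and in 22.9% of the 551 in short bins. The Olf1/Ebf motif, TCCC and GGGA with any 2 bases between them, was found on either strand in 0.533% of receptor promoters and 0.948% of all. These windows describe the sequence around listed starts, which for receptors may be coding starts and not transcription starts. GC content was not measured over whole bins, for which no genome sequence was used here.

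Most receptor bins held receptors and nothing else: in 507 of the 571 every protein-coding start was an olfactory receptor. A bin held 1 receptor in 225 cases, 2 in 199, 3 in 113, 4 in 28 and 5 in 6. Receptor bins were found on 16 of the 19 autosomes. Joined wherever the gap between neighbours was 500 kb or less, they formed 33 clusters of 3 or more bins, which took in 541 bins, and 30 bins lay outside them. The largest cluster, on chromosome 2 from Olfr987 to Olfr1274, had 98 bins and 222 genes over 5150 kb. It was followed by a chromosome 9 cluster from Olfr160 to Olfr986 with 49 bins and 95 genes, and by a chromosome 7 cluster from Olfr543 to Olfr692 with 47 bins and 126 genes. The chromosome 7 cluster is called the class I cluster here: of the 123 genes with a class I family number (up to 42 in the MOR numbering), 121 lie in it, together with 1 class II gene, and the other 2 lie in the Olfr467 to Olfr519 cluster of the same chromosome. The next in size were clusters of 32 bins on chromosome 19 (Olfr1417 to Olfr1505), 26 on chromosome 10 (Olfr9 to Olfr827), 26 on chromosome 9 (Olfr24 to Olfr18) and 24 on chromosome 17 (Olfr90 to Olfr136).

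Nearly all receptor bins passed the minimum of 20 contacts. It was met by 570, 569 and 569 of the 571 bins in Del8 replicates 1, 2 and 3, and by 566, 568 and 569 in WT replicates 1, 2 and 3; 566 bins met it in all 6. Only the bin of Olfr100 held no contact in any library: its listed position lies before the first position of chromosome 17 with contacts, 3000001. The 4 other bins below the minimum in some library were those of Olfr1506, Olfr1228, Olfr1565 and Olfr845. Olfr845 had 982, 691 and 506 contacts in the Del8 libraries, against 19, 39 and 522 in the WT libraries, and so fell just outside. Olfr853, just inside, had 862, 259 and 169 in the Del8 libraries and 20, 27 and 516 in the WT libraries.

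A bin with 20 contacts can still be nearly empty for its library, as these counts show. The libraries held 66266759, 46925260 and 38088173 same-chromosome contacts in Del8 and 24038030, 24512722 and 36233407 in WT. The median receptor bin had 1422, 1021 and 859 contacts in the Del8 libraries, against 174, 158 and 835 in the WT libraries. Divided by each library's median well-covered bin, these were 0.491, 0.492 and 0.487 in Del8, and 0.134, 0.122 and 0.506 in WT. WT replicates 1 and 2 thus stood apart from the other 4 libraries at receptor bins, and WT replicate 3 did not.

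**Figure D1:**
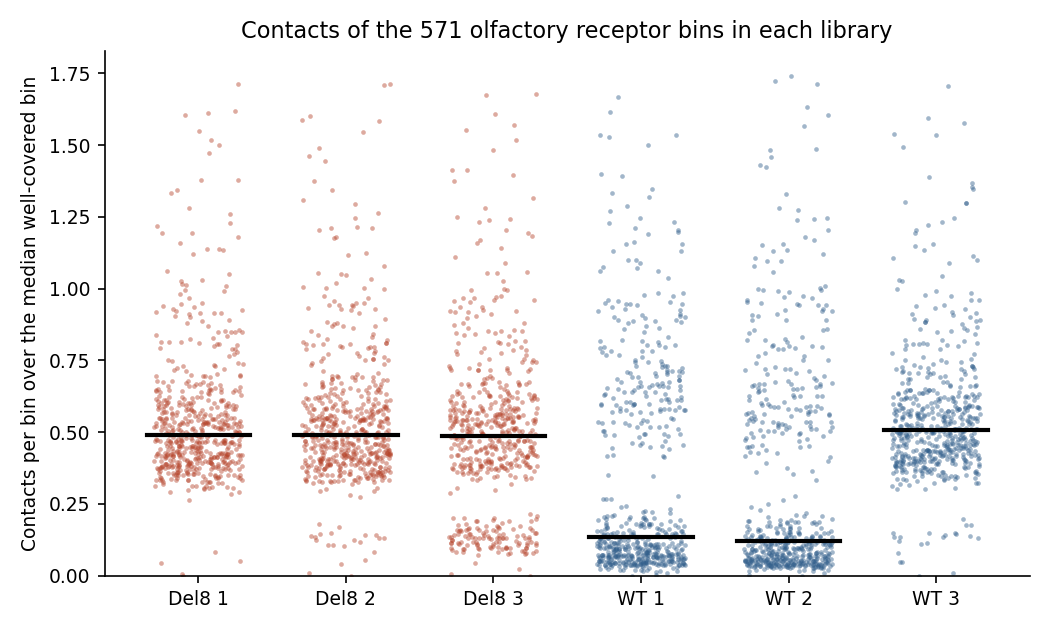
Contacts of each olfactory receptor bin (points) divided by the median contacts of a well-covered bin of the same library, with the median of the 571 bins as a black line, for 3 Del8 and 3 WT libraries. The medians lie at 0.487 to 0.492 in Del8 and at 0.134, 0.122 and 0.506 in WT replicates 1, 2 and 3, and part of the bins of Del8 replicate 3 form a second, low group.

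A bin was called short of contacts in a library when its scaled coverage was below 0.5 of the third highest of the 6 libraries. By this rule 85 receptor bins (14.9%) were short in Del8 replicate 3 and none in Del8 replicates 1 and 2, against 355 (62.2%), 367 (64.3%) and 0 in WT replicates 1, 2 and 3. All 85 bins short in Del8 replicate 3 were also short in both WT replicates 1 and 2, which shared 334 short bins. A bin low in 4 or more libraries escapes the rule, and a few such bins appear for Del8 replicate 2 and WT replicate 3 in the plot of scaled contacts. Of the 26 bins of the Olfr24 to Olfr18 cluster, 25 and 24 were short in WT replicates 1 and 2. Of the 98 bins of the large chromosome 2 cluster, 92 and 95 were.

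From a scaled coverage of 0.4 upward the share of short bins fell with coverage, among receptor bins and among other bins. Below 0.4 it was 95.4% of 108 receptor bins and 86.1% of 5922 other bins in WT replicate 1, where other bins were thus less often short than in the next level up. Among receptor bins with a scaled coverage of 0.8 or more in WT replicate 3, none of 69 was short in any library. Among those between 0.5 and 0.6, 62.5% of 136 were short in WT replicate 1, against 79.9% of the 5320 other bins of the same level. Between 0.4 and 0.5 the shares were 94.5% of 164 receptor bins and 96.3% of 5806 other bins. Bins with vomeronasal receptor starts (Vmn1r and Vmn2r, the pheromone receptor families, also in tandem clusters) had a median scaled coverage of 0.0510 in WT replicate 1, and bins with zinc finger protein starts (Zfp, another clustered family) 0.913. Of bins with 1 receptor 59.6% were short in WT replicate 1 and 61.8% in WT replicate 2, and of bins with 4 or more 64.7% and 61.8%.

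**Figure D2:**
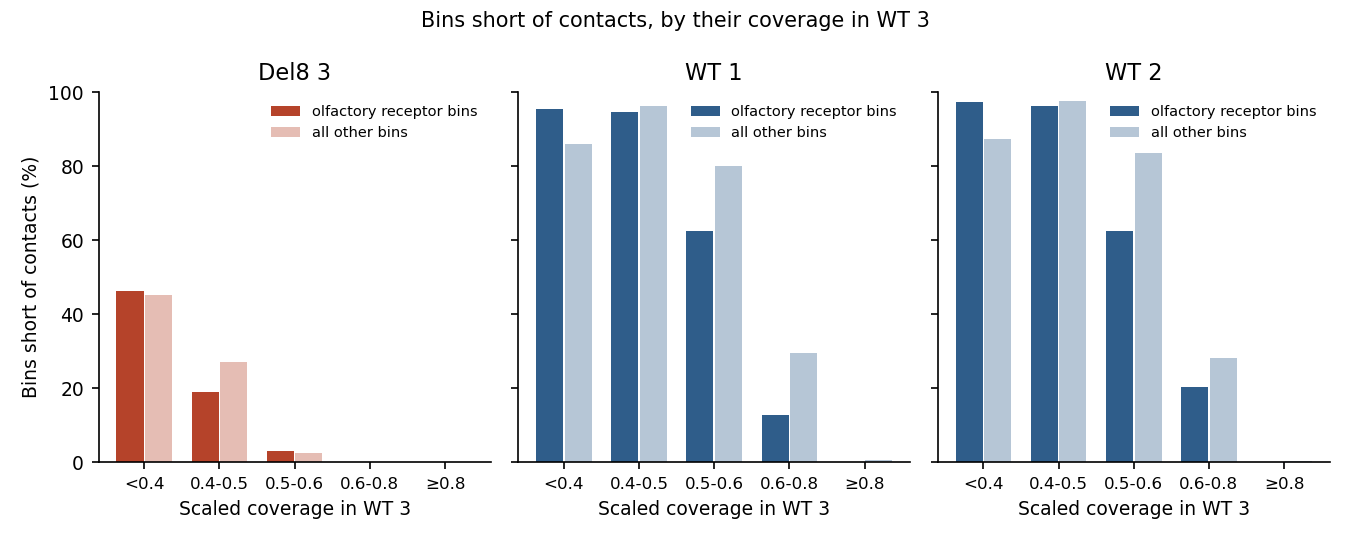
Percent of bins short of contacts (y axis) in Del8 replicate 3, WT replicate 1 and WT replicate 2, by the scaled coverage of the bin in WT replicate 3 (x axis), for olfactory receptor bins (dark bars) and all other autosomal bins with contacts (light bars). In WT replicate 1 the share is 95.4% of receptor bins below 0.4 and none at 0.8 or more; among other bins it is 86.1% below 0.4 and 96.3% at 0.4 to 0.5, before it falls.

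The missing contacts decide which receptor bins can be compared. A bin was called usable when no library was short there and every library had more than 0.1 of its scale: 181 of the 571 receptor bins (31.7%) and 27836 bins in all (58.1% of those with contacts). Usable shares were 15.6% for vomeronasal receptor bins, 80.8% for zinc finger bins and 82.7% for bins with other genes. Since most short bins are short in WT replicates 1 and 2, each main result is also given for the 3 Del8 libraries against WT replicate 3, over bins screened on those 4 libraries alone. That 4-library set held 455 receptor bins (79.7%), but has 1 WT library. In it, and in any fit with WT replicate 3 alone, the spread behind a bin or pair test comes from the Del8 libraries only. With 3 libraries against 3, an exact permutation test cannot give a p below 0.10.

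Receptor bins took similar shares of the contacts in 4 of the 6 libraries. They held 0.806%, 0.806% and 0.768% of autosomal contact ends in the Del8 libraries, against 0.615%, 0.571% and 0.815% in the WT libraries. The groups overlapped (0.793% ± 0.0221 in Del8 and 0.667% ± 0.130 in WT, SD, n = 3 each; two-sided exact permutation p = 0.40, 0.50 after Benjamini-Hochberg adjustment over 5 values). Over usable bins alone the 6 shares lay between 0.469% and 0.491%. Bin by bin, edgeR's quasi-likelihood test called 0 of 566 receptor bins at an adjusted p below 0.05, where 0.0285% of 45645 bins were called (0.0241% higher and 0.00438% lower in Del8). It also called 0 of 455 in the 4-library set, where 0.157% of 41339 bins were called (0.133% higher and 0.0242% lower), and 35 receptor bins had an unadjusted p below 0.05, or 7.69% against 11.2% of all bins. At an unadjusted p below 0.05 it gave 11 receptor bins, all lower in Del8, or 1.94% against 8.71% of all bins. DESeq2 gave 27, or 4.77% against 13.2% of all bins, and called none. The median fitted log2 fold change of receptor bins was 0.71, against -0.01 over all bins. It was 0.00 over usable bins and -0.01 in the 4-library set, and leaving out 1 library gave 0.38 (without WT replicate 2) to 1.52 (without WT replicate 3). The outcome rested on WT replicate 3: without it edgeR called 326 receptor bins higher and 62 lower in Del8, where it called 32.9% of all bins higher and 26.8% lower.

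The B compartment holds most receptor bins. Compartment type was read from the leading eigenvector of the summed contact map at 250 kb, with A the gene-rich type. Each 50 kb bin took the type of its 250 kb bin, so 527 receptor bins were typed although 455 passed the 4-library screen. Of these 527, 434 (82.4%) were B, against 55.6% of all bins, 81.4% of vomeronasal receptor bins and 17.1% of zinc finger bins. Counted by 250 kb bin, 113 of 159 with a measured receptor bin (71.1%) were B, against 55.5% of 8902. All 47 class I bins were B, as were 80.9% of 471 class II bins. Some clusters held no B bin in the 4-library map: 0 of 11 bins were B in the chromosome 7 cluster from Olfr522 to Olfr541, 0 of 8 in the chromosome 11 cluster from Olfr30 to Olfr311 and 0 of 4 in the chromosome 1 cluster from Olfr1416 to Olfr12. The type depended on the map for the first pair of these. In the 6-library map the 250 kb bins of the chromosome 7 cluster had eigenvector values of 0.66, -0.29 and -0.10 and those of the chromosome 11 cluster -0.21, -0.35 and 0.27, where values below 0 are B, while those of the chromosome 1 cluster stayed A at 1.39 and 1.10. Among the 239 receptor bins typed in the 6-library set, of which 181 were usable, 73.6% were B. By 250 kb bin it was 49 of 83 (59.0%), against 52.6% of 6131.

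Receptor bins preferred B-type partners more in every Del8 library than in any WT library, and the mean of all other bins moved with them. The log2 ratio of their contact with B-type over A-type bins at 2 Mb or more was 0.18, 0.19 and 0.20 in Del8, against 0.16, 0.16 and 0.13 in WT (0.19 ± 0.01 in Del8 and 0.15 ± 0.02 in WT, SD, n = 3 each). No Del8 value fell within the WT range; the exact permutation p was 0.10, the smallest this design allows, and 0.25 after adjustment over 5 values. All other bins averaged 0.05, 0.02 and 0.04 in Del8 and 0.00, 0.00 and 0.00 in WT, and receptor bins minus all other bins overlapped between the groups (exact permutation p = 0.70). Other B-type bins taken alone overlapped, at 0.53, 0.48 and 0.51 in Del8 and 0.50, 0.50 and 0.44 in WT (exact permutation p = 0.40). In the 4-library set these B-type bins had 0.64, 0.58 and 0.62 in Del8 and 0.47 in WT replicate 3. Receptor minus all other bins in the 4-library set gave 0.33, 0.34 and 0.34 in Del8 and 0.31 in WT replicate 3. In the 4-library set the receptor bins stood at 0.37, 0.36 and 0.38 in Del8, against 0.26 in WT replicate 3. No single 250 kb receptor bin passed limma's test: 0 of 83 were called, with 0% called among 6131 bins, and 11 had an unadjusted p below 0.05, 8 of them higher in Del8, a share of 13.3% against 13.1% of all bins. The lowest p belonged to the bin of Olfr155 to Olfr157 and Olfr159 on chromosome 4, higher in Del8 by 0.41 (adjusted p = 0.223).

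Contact inside receptor clusters was lower in Del8. For pairs of bins of 1 cluster 100 kb or more apart, the mean observed over expected contact (the expected being the mean of the chromosome at the same distance) was 2.15, 2.04 and 2.00 in Del8, against 2.35, 2.28 and 2.39 in WT. Every Del8 library lay below every WT library (2.06 ± 0.0814 in Del8 and 2.34 ± 0.0571 in WT, SD, n = 3 each; exact permutation p = 0.10, adjusted 0.25). The direction turned when all bins with 20 or more contacts in each library were kept, short ones included, where the values were 1.24, 1.26 and 1.24 in Del8 and 0.878, 0.861 and 1.39 in WT. In usable bins the gap lay at middle distances. At 500 kb to under 2 Mb the values were 3.02, 2.63 and 2.84 in Del8 and 3.66, 3.69 and 3.75 in WT, a ratio of means of 0.765 (exact permutation p = 0.10, adjusted 0.164 over 23 values). At 100 to 450 kb the groups overlapped, at 1.57 to 1.65 in Del8 and 1.62 to 1.72 in WT, as they did at 2 Mb or more. These rest on few pairs: 97 usable bin pairs at 500 kb to under 2 Mb, with 739 to 1192 contacts per Del8 library and 596 to 779 per WT library.

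The 4-library set holds more of each cluster and showed the same order. Within clusters it gave 1.49, 1.45 and 1.46 in Del8, against 1.59 in WT replicate 3, over 4639 pairs. At 500 kb to under 2 Mb it gave 1.52, 1.49 and 1.49 in Del8 and 1.71 in WT replicate 3, over 2241 pairs with 10390 contacts or more per library. Of 23 clusters with 10 or more pairs, 17 had all 3 Del8 libraries below WT replicate 3 and 3 had all 3 above. All 23 share that 1 WT library, so they are not separate tests, and no like tally was made for other clustered families. Against all 3 WT libraries, over usable bins, 7 of 13 clusters had every Del8 library below every WT library and 1 had every one above, and the class I cluster overlapped at 2.60, 2.33 and 2.21 in Del8 and 2.44, 2.53 and 2.55 in WT. The Olfr24 to Olfr18 cluster on chromosome 9 had 1.63, 1.72 and 1.61 in Del8 and 1.94 in WT replicate 3. The large chromosome 2 cluster had 1.98, 1.92 and 2.02 in Del8 and 2.11 in WT replicate 3, and the class I cluster 1.31, 1.26 and 1.26 in Del8 and 1.34 in WT replicate 3. The 3 clusters above WT replicate 3 were those of chromosome 6 (Olfr458 to Olfr47), chromosome 11 (Olfr30 to Olfr311) and chromosome 13 (Olfr1370 to Olfr1359).

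Vomeronasal receptor clusters shared the lower contact. Within them the values were 2.09, 2.15 and 2.10 in Del8 and 2.44, 2.41 and 2.35 in WT, over 70 usable bin pairs. The ratio of olfactory to vomeronasal clusters overlapped between the groups (exact permutation p = 1.0). In the 4-library set vomeronasal clusters had 1.71, 1.69 and 1.71 in Del8 and 1.76 in WT replicate 3. There the ratio was 0.867, 0.861 and 0.855 in Del8, each below the 0.903 of WT replicate 3. Zinc finger clusters had 1.28, 1.27 and 1.25 in Del8 and 1.32, 1.34 and 1.29 in WT; in the 4-library set they had 1.20, 1.18 and 1.21 in Del8 and 1.20 in WT replicate 3, which lay among the Del8 values. The ratio of olfactory to zinc finger clusters was 1.68, 1.61 and 1.6 in Del8, below the 1.78, 1.71 and 1.84 of WT (exact permutation p = 0.10, adjusted 0.164). That ratio in the 4-library set was 1.24, 1.23 and 1.21 in Del8, against 1.32 in WT replicate 3.

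**Figure D3:**
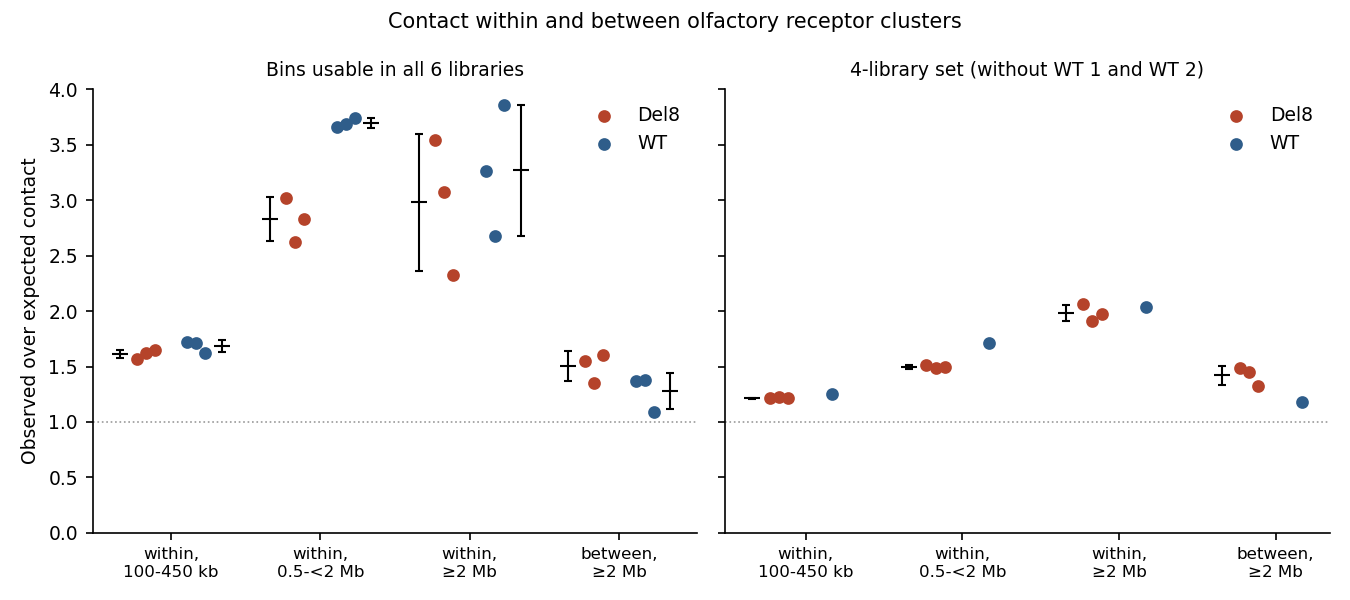
Observed over expected contact between bins of the same olfactory receptor cluster, by distance class, and between clusters of a chromosome, for each Del8 library (red) and WT library (blue), with mean ± SD as bars. Within clusters at 500 kb to under 2 Mb the Del8 libraries lie at 2.63 to 3.02 and the WT libraries at 3.66 to 3.75 in the left panel, and at 1.49 to 1.52 and 1.71 in the 4-library set on the right.

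On balanced maps of usable bins, different clusters of a chromosome met more often than other segments at their distance in each library, and the 2 groups overlapped. Before balancing the same ratio was below 1 in each library, at 0.592, 0.590 and 0.567 in Del8 and 0.646, 0.663 and 0.493 in WT, and over bins with 20 or more contacts WT replicate 2 was at 0.741. At 2 Mb or more, contact between clusters was 1.55, 1.35 and 1.6 times the expected in Del8, against 1.37, 1.38 and 1.09 in WT (exact permutation p = 0.30, adjusted 0.50). The counts behind these values were small, 235, 169 and 147 contacts in Del8 and 133, 128 and 160 in WT. In the 4-library set, with 973 to 1621 contacts per library, it was 1.49, 1.45 and 1.33 in Del8 and 1.18 in WT replicate 3. Of 14 pairs of clusters, 8 had all Del8 libraries above WT replicate 3 and 2 all below. No like tally was made for other segments, and some of the 8 rested on few raw contacts. Olfr1344 to Olfr1350 with the class I cluster had 6, 5 and 2 in Del8 and 0 in WT replicate 3. The chromosome 10 pair had 11, 8 and 9 in Del8 and 1 in WT replicate 3. For the class I cluster with Olfr467 to Olfr519 the lowest Del8 ratio was 1.03, against 1.02 in WT replicate 3. The Olfr24 to Olfr18 and Olfr160 to Olfr986 clusters of chromosome 9 met at 1.91, 1.83 and 1.93 times the expected in Del8 and 1.57 in WT replicate 3. Contact of receptor clusters with other B-type bins was 1.26, 1.24 and 1.24 in Del8 and 1.21, 1.22 and 1.19 in WT, without overlap, and contact among other B-type bins moved the same way, at 1.12, 1.10 and 1.11 in Del8 and 1.09, 1.09 and 1.07 in WT. Contact between clusters over contact with other B-type bins overlapped between the groups (exact permutation p = 0.30), and was 1.22, 1.22 and 1.09 in Del8 and 1.07 in WT replicate 3 in the 4-library set.

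Cluster edges were places of low insulation score, and the dip was shallower in Del8. The score is the log2 of mean contact across a bin, within a 500 kb square, over the chromosome mean, so that a low score marks a boundary. Around the 32 edges of the clusters with 10 or more bins, of which 25 had a score just outside, the mean 50 kb before the first receptor bin was -0.40, -0.42 and -0.39 in Del8 and -0.51 in WT replicate 3. At 450 kb inside the cluster it was 0.30, 0.31 and 0.25 in Del8 and 0.39 in WT replicate 3. In the 6-library set the bins from 150 kb outside an edge to the edge itself had a mean score of -0.07, -0.08 and -0.06 in Del8, against -0.24, -0.24 and -0.20 in WT, over 37 of 128 such bins (exact permutation p = 0.10, adjusted 0.164). Scores of all other bins were also less spread in Del8, with SDs of 0.346, 0.344 and 0.349 in Del8 and 0.425, 0.422 and 0.402 in WT, and edges were not tested against other boundaries. The edge score minus the score inside, divided by that SD, was -1.41, -1.59 and -1.50 in Del8 and -2.10, -2.0 and -1.84 in WT over usable bins, without overlap (exact permutation p = 0.10, adjusted 0.164), with only 7 of 370 inside bins scored. It was -1.73, -1.75 and -1.59 in Del8 and -1.80 in WT replicate 3 in the 4-library set.

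**Figure D4:**
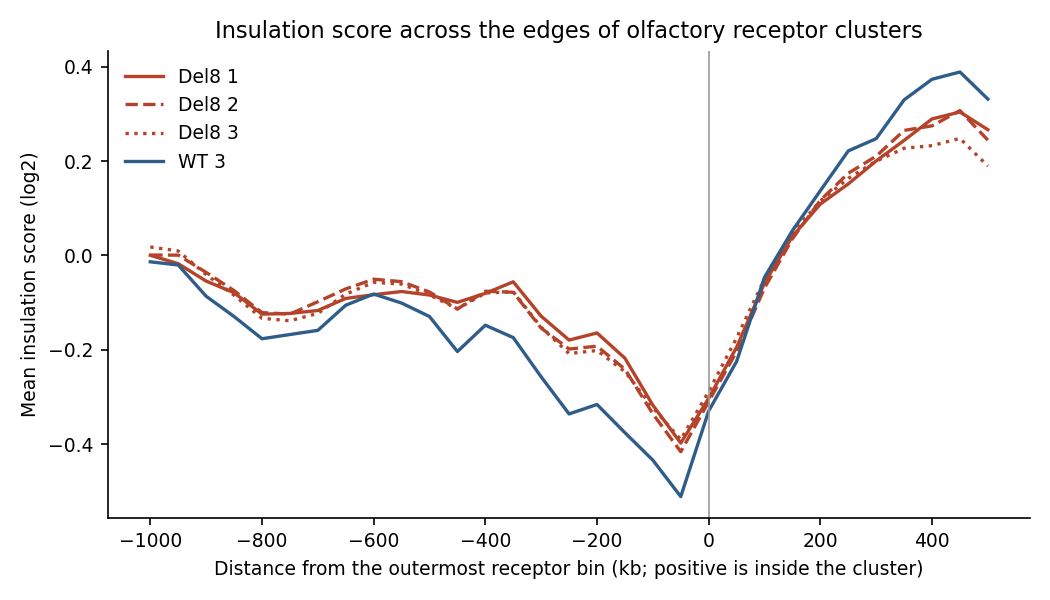
Mean insulation score (y axis, log2) against distance from the outermost receptor bin of clusters with 10 or more bins (x axis, kb, positive inside the cluster), for 3 Del8 libraries (red) and WT replicate 3 (blue) in the 4-library set. All 4 curves have their lowest point 50 kb outside the cluster, at -0.39 to -0.42 in Del8 and -0.51 in WT replicate 3, and rise inside it.

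Of the 92 receptor bins that could be scored in all 6 libraries, 24 had a higher and 26 a lower insulation score in Del8 (limma, adjusted p below 0.05 over 22056 bins). Of all bins, 32.3% were called higher and 30.5% lower, 62.8% in either direction, and the receptor bins were at 26.1% and 28.3%, or 54.3%. In 21 of the 92 every Del8 library lay above every WT library and in 30 below, 51 in all, against 34.3%, 32.7% and 67% of all bins. The median difference was -0.01 over the 92 and 0.00 over all bins. The calls depend on the screen of bins: over all bins with 20 or more contacts in each library limma called 0 of 405 receptor bins and 0 of 36012 bins, with 32 receptor bins at an unadjusted p below 0.05 (7.90% against 12% of all bins), and in the 4-library set it called 60 of 386 higher and 78 lower, where 22.9% and 17.5% of all bins were called (40.4% in either direction).

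The largest rise was at the bin of Olfr1358 on chromosome 10 (78450001 to 78500000), the first bin of its cluster. Its score was 0.37, 0.33 and 0.32 in Del8 and -0.25, -0.14 and -0.15 in WT, a contact across the bin 1.43 times as high (difference 0.52, SE 0.03, limma adjusted p = 4.51e-07). The next was the outer bin of the class I cluster with Olfr543, Olfr544 and Olfr545 on chromosome 7 (102450001 to 102500000), whose promoter of Olfr544 is printed above. It scored -0.25, -0.19 and -0.15 in Del8, against -0.72, -0.60 and -0.60 in WT (difference 0.45, SE 0.04, limma adjusted p = 3.88e-06). This cluster edge was thus a weaker boundary in every Del8 library, and the neighbouring bin of Olfr547 also rose, by 0.31. In the 4-library set the edge bin stood at -0.66, -0.59 and -0.59 in Del8 and -1.12 in WT replicate 3.

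On chromosome 11, 5 of 7 scored bins of the cluster from Olfr30 to Olfr311 rose and 1 fell. The bin of Olfr311, Olfr312 and Olfr313, at 1 end, had scores of 0.09, 0.12 and 0.14 in Del8 and -0.26, -0.31 and -0.40 in WT, a difference of 0.44. The bin of Olfr30 and Olfr332, at the opposite end, scored 0.06, 0.07 and 0.03 in Del8 and 0.20, 0.27 and 0.20 in WT. Other rises were at the chromosome 3 bin of Olfr1402 (0.34) and the chromosome 17 bin of Olfr95, Olfr96 and Olfr97 (0.31), in a cluster where all 4 scored bins rose.

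The largest group of falls lay in the chromosome 7 cluster from Olfr522 to Olfr541, in which 6 of 11 bins fell and none rose. The bin of Olfr533 and Olfr535 scored 0.31, 0.32 and 0.34 in Del8 and 0.69, 0.72 and 0.54 in WT, a difference of -0.33 (SE 0.04, limma adjusted p = 4.24e-05). Its neighbours with Olfr536, with Olfr531 and Olfr532, with Olfr530 and with Olfr538 differed by -0.32, -0.32, -0.26 and -0.22. In each of these 5 bins every Del8 library lay below every WT library. The bin of Olfr55 and Olfr239 on chromosome 17 had the lowest difference, -0.34, but WT replicate 3 was far nearer to Del8 than the other WT libraries: 0.25, 0.25 and 0.23 in Del8 and 0.65, 0.78 and 0.32 in WT. In the 4-library set its difference of -0.10 missed the threshold (limma adjusted p = 0.0699).

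**Figure D5:**
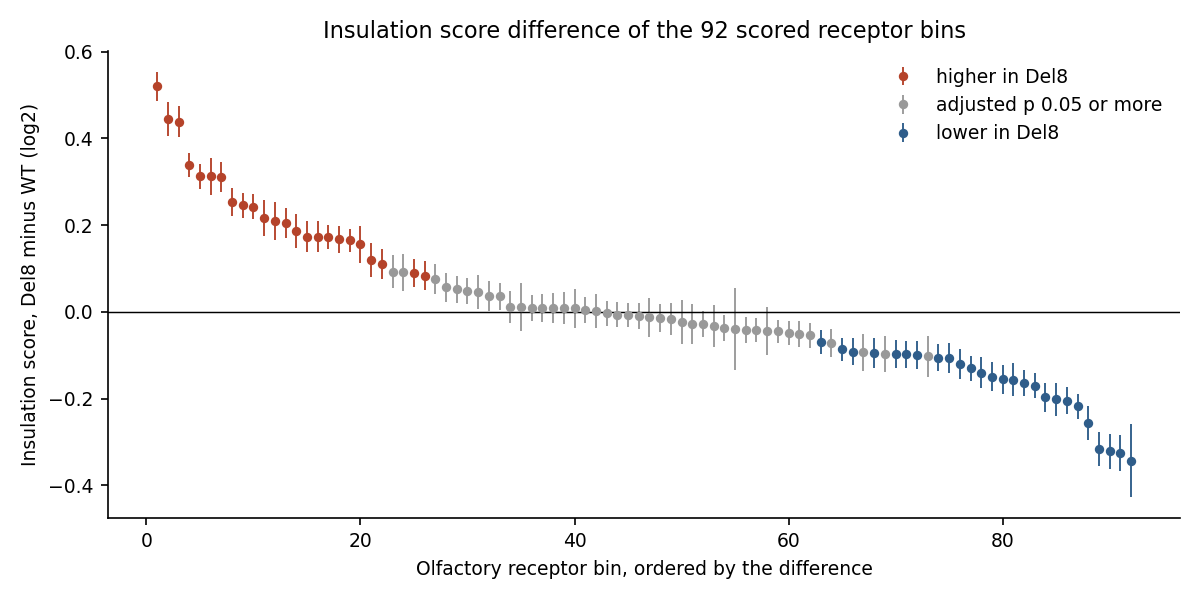
Difference in insulation score (Del8 minus WT, log2, with its SE) at the 92 receptor bins scored in all 6 libraries, in order of size, with bins past limma's adjusted p of 0.05 in red (24 higher in Del8) or blue (26 lower). The differences run from 0.52 at Olfr1358 to -0.34 at Olfr55 and Olfr239.

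Among pairs of 100 kb bins up to 2 Mb apart, 1688 had at least 1 end in a receptor bin. With offsets for chromosome and distance, edgeR called 90 of them higher and 42 lower in Del8 (adjusted p below 0.05), or 5.33% and 2.49%, where 4.7% and 4.13% of 152519 pairs were called (8.83% in either direction). Of 4343 pairs in the 4-library set 25 were higher and 15 lower, where 0.808% and 0.652% of all pairs were called (1.46% in either direction). Without WT replicates 1 and 2, which leaves 1 WT library, the median log2 fold change was 0.0626 over receptor pairs and 0.0189 over all pairs. Of the 109 pairs with receptors at both ends, 10 were higher and 8 lower. These counts were not stable: leaving out 1 library gave 2 to 8 higher and 2 to 10 lower. The median log2 fold change of these pairs was -0.0381, and 0.0758 without WT replicates 1 and 2. In the 4-library set the median of both-end pairs was -0.0419.

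Of the 5 lowest folds, 4 met at 1 place on chromosome 11, the 100 kb bin of Olfr410, Olfr411, Olfr412 and Rap1gap2, the last a GTPase-activating protein, at the end of its cluster. Its contact with the bin of Trpv1 and Trpv3, heat-sensing ion channels 1100 kb away on the other side of the cluster, was 76, 50 and 56 raw contacts in Del8 and 68, 78 and 92 in WT. Del8 libraries are deeper, so the like counts stand for a fold of 0.407 (log2 -1.30, SE 0.17, edgeR adjusted p = 1.39e-09). With WT replicate 3 alone the log2 fold was -1.17. Contact with the bins of Camkk1 and Atp2a3, farther out, was lower at folds of 0.387 and 0.383, and contact with the opposite end of the cluster at Olfr1, Olfr20 and Olfr376 at 0.601. The remaining pair of the 5 joined the chromosome 14 bin of Olfr1507 to Olfr1510 to one without a gene start, with 14, 3 and 8 raw contacts in Del8 and 7, 13 and 15 in WT, a fold of 0.405 (edgeR adjusted p = 0.0437). Along the same cluster the bin of Olfr401, Olfr402 and Olfr403 had more contact in Del8 with the bin of Hic1, outside the cluster. That pair had 33, 25 and 16 raw contacts in Del8 and 6, 4 and 1 in WT, a fold of 3.43 (log2 1.78, SE 0.47, edgeR adjusted p = 0.00564). Without WT replicate 3 the log2 fold was 1.17 and missed the threshold (edgeR adjusted p = 0.136).

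Other called pairs went in both directions. The largest rise, a fold of 3.6, joined the bin of Olfr286 and Olfr287 on chromosome 15 to that of Fmnl3, an actin regulator, with 35, 19 and 19 raw contacts in Del8 and 2, 2 and 7 in WT; against WT replicate 3 alone it missed the threshold (adjusted p = 0.248). Within the class I cluster the edge bin of Olfr543, Olfr544 and Olfr545 had more contact with the next bin, at a fold of 1.29, with 517, 329 and 264 raw contacts in Del8 and 189, 163 and 191 in WT. In the same cluster the bin of Olfr547 to Olfr551 had less contact with that of Olfr570 to Olfr578, at a fold of 0.724. That pair had 150, 113 and 96 raw contacts in Del8 and 118, 84 and 86 in WT. The mean over all tested pairs was 126, 88.7 and 76.8 in Del8 and 53.2, 55.4 and 67.3 in WT. For its depth WT replicate 3 was thus near the Del8 libraries, and the fall rested on WT replicates 1 and 2. In the Olfr522 to Olfr541 cluster the pair of Olfr524 with Olfr45, Olfr46, Olfr53, Olfr61 and Olfr539 was lower at 0.737. The pair of Olfr536 and Olfr538 with that same bin was higher at 1.45. It had 216, 165 and 152 raw contacts in Del8 and 55, 58 and 123 in WT. For its depth WT replicate 3 lay near the Del8 libraries here, and the rise rested on WT replicates 1 and 2.

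Of 10 well-studied receptors, 9 were in the table and none lay in a bin with a coverage call. Olfr78 and Olfr558, class I receptors also known from vascular smooth muscle, share 1 bin, with 2358, 1805 and 1494 contacts in Del8 and 1209, 1158 and 1470 in WT. Its insulation score did not pass the test (difference -0.04, limma adjusted p = 0.507). Olfr544 lies in the edge bin that rose. The bin of Olfr160 had 2067, 1435 and 1182 contacts in Del8 and 1058, 846 and 1170 in WT. The bins of Olfr17 and Olfr73 had lost contacts in WT replicates 1 and 2: Olfr17 had 1459, 1099 and 987 in Del8 and 180, 192 and 929 in WT, and Olfr73 had 1035, 780 and 196 in Del8 and 71, 54 and 616 in WT. The Olfr73 bin was low in Del8 replicate 3 too, at a scaled coverage of 0.111 against 0.357 and 0.376 in Del8 replicates 1 and 2. Olfr2, the octanal receptor, had 1672, 1188 and 1013 in Del8 and 225, 590 and 939 in WT. Olfr16, which is also expressed in sperm and muscle, had 1806, 1247 and 1073 in Del8 and 849, 326 and 1092 in WT. Olfr1507 had 1384, 976 and 894 in Del8 and 573, 620 and 777 in WT.

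Genes through which receptors are expressed and signal lie mostly outside receptor clusters and were measured better. Of 21 such genes 17 were A-type and 4 B-type, and all 21 lay in usable bins. Of the 20 with an insulation score, 7 were higher in Del8, 2 lower and 11 did not pass, beside the 32.3% and 30.5% of all bins. The bin of Cbx5, a heterochromatin protein, rose by 0.36 (limma adjusted p = 7.56e-06). Those of Rtp1, a receptor trafficking protein, of Kdm1a, a histone demethylase needed for receptor choice, and of Ano2, the chloride channel of olfactory cilia, rose by 0.27, 0.25 and 0.25. The others that rose were Cngb1, Emx2 and Ehmt2; Emx2 missed the threshold in the 4-library set, at 0.05 (limma adjusted p = 0.433). The bin of Adcy3, the cyclase of the odorant cascade, differed by -0.14 and that of Atf5, a factor of the receptor feedback signal, by -0.20; Adcy3 missed the threshold in the 4-library set, at -0.12 (limma adjusted p = 0.156). Gnal, the G protein of the same cascade, missed the threshold at -0.10.

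Contacts that join a receptor bin to itself made up 13.6%, 13.9% and 13.8% of its contacts in Del8, and 15.7%, 15.1% and 11.2% in WT (exact permutation p = 1.0). Contacts at 500 kb to under 2 Mb took 21.3%, 21.3% and 21.1% of the contacts of usable receptor bins beyond the bin itself in Del8, against 18.2%, 18.4% and 19.2% in WT, without overlap (exact permutation p = 0.10, adjusted 0.164). Other bins did the same, at 22.2%, 22.2% and 22.3% in Del8 and 19.4%, 19.5% and 20.1% in WT, and the difference between receptor and other bins overlapped between the groups (exact permutation p = 0.50).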

How the data were processed

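The authors deposited raw contact counts between 50 kb bins of the same chromosome for each library; the build is mm10 per the submitters' processing notes, and the aligner is not given in the sources used here. Olfactory receptor bins, gene lists and tests were chosen with earlier results of these data known. Maps were balanced by iterative correction without the diagonal, in bins usable in all 6 libraries, and expected contact was taken per chromosome and distance. Coverage and 100 kb pairs (mean of 10 or more contacts) were tested with edgeR 4.0.16 (quasi-likelihood), insulation and compartment with limma 3.58.1, with Benjamini-Hochberg adjustment over all bins or pairs; DESeq2 1.42.0 was an alternative (R 4.3.3, Python 3.11.15). Fits were tested on simulated data. Single values were compared by two-sided exact permutation. The 4-library set and 23 of the single values were added after seeing the data. The text names the clusters with most bins and members of the fixed receptor and pathway lists. It also names some, but not all, of the 10 largest changes in each direction among called bins or pairs, by fold. Which of these to name, and any other bins, pairs and clusters, were picked after their values were seen. No libraries agreed within sampling noise.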

Additional observations from a re-analysis of the deposited data

Results flagged for a closer look

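The 6 olfactory receptor bins of chromosome X lie outside every comparison above. They held 2630, 1189 and 952 contacts in Del8 replicates 1, 2 and 3, and 0, 2 and 195 contacts in WT replicates 1, 2 and 3. Over the whole chromosome the Del8 libraries held 1093153, 549105 and 299932 contacts and the WT libraries 1371, 2402 and 125293. The cause was not tested.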

How the results depend on the processing

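Leaving out 1 library at a time gave 0 to 388 coverage calls among receptor bins (388 without WT replicate 3) and 0 compartment calls. It gave 42 to 50 insulation calls among receptor bins and 78 to 104 calls among receptor pairs. Over all 22056 bins it gave 6308 to 7162 higher and 5844 to 6624 lower insulation calls. Over all 152519 pairs it gave 4293 to 5494 higher and 3703 to 4930 lower calls. Insulation calls numbered 0 over bins with 20 or more contacts in each library and 138 in the 4-library set, which tests more bins. Pair calls numbered 39 without WT replicates 1 and 2, 42 with DESeq2 and 40 in the 4-library set. The difference in contact share was -0.0219 percentage points without WT replicates 1 and 2, that of contact between clusters was -0.0175 in raw contacts, and that within clusters was 0.201 over bins with 20 or more contacts. The within-bin share differed by -1.59 to 0.660 points leaving out 1 library and by 2.60 without WT replicates 1 and 2, where other bins differed by 2.70. Leaving out 1 library, compartment preference of receptor minus other bins differed by -0.00689 to 0.0114 (below 0 without Del8 replicate 2, Del8 replicate 3 or WT replicate 3, at -0.00408, -0.000577 and -0.00689), and contact with A-type bins by -0.00883 to 0.00343 (above 0 without the same libraries, at 0.00343, 0.000138 and 0.00131). The ratio of olfactory to vomeronasal clusters differed by -0.0262 to 0.0207 leaving out 1 library (-0.0262, -0.00477 and -0.0145 without Del8 replicate 1, WT replicate 1 and WT replicate 2), by -0.0400 without WT replicates 1 and 2 and by -0.0423 in the 4-library set. Contact within clusters at 2 Mb or more differed by -0.583 to 0.0399 leaving out 1 library, and was higher in Del8 by 0.0399 without Del8 replicate 3 and 0.00669 without WT replicate 3. The share at 500 kb to under 2 Mb, receptor minus other bins, turned to -0.0464 without WT replicates 1 and 2, -0.256 in the 4-library set and -0.557 over bins with 20 or more contacts. In that last set the insulation differences of Olfr1358, of Olfr95 to Olfr97, of Olfr222 and Olfr223 and of Olfr1380 and Olfr1381 were -0.40, -0.48, -0.0197 and -0.10. The causes were not tested.

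Same-numbered libraries did not deviate together (correlations of coverage -0.135, -0.0188 and -0.215). This gives no sign of pairing, but with 3 libraries per group it cannot exclude that same-numbered libraries were processed together. With the replicate number as a block there were 0 coverage, 51 insulation, 0 compartment and 121 pair calls among receptor bins and pairs. Over all bins it gave 7014 higher and 6589 lower insulation calls, and over all pairs 6668 higher and 5793 lower calls. By construction the block leaves the differences of the 5 single values unchanged, so that they stayed the same tells nothing about them. They are 0.126 for contact share, 0.04 for compartment preference, 0.222 between clusters, -0.277 within clusters and -0.190 for the within-bin share. The smallest p the block allows is 0.25.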
